A study of Mus musculus with 2 samples.

Results

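The clustered protocadherin genes of the mouse were taken as the genes on chromosome 18 whose symbol is Pcdha, Pcdhb, Pcdhga, Pcdhgb or Pcdhgc with a number, together with Pcdhac1 and Pcdhac2. The rule found 58 of the 49997 genes in the gene table used. They comprise 14 alpha genes, 22 beta genes and 22 gamma genes, of which Pcdhgb8 is annotated as a pseudogene. In mm10 coordinates the alpha genes span chr18:36930285-37188897, the beta genes chr18:37264998-37521419 and the gamma genes chr18:37661775-37841873. Their spans overlap 16 of the 54521 bins of 50 kb into which the genome was divided, with 6 alpha, 6 beta and 4 gamma bins. Those bins and the 3 gap bins between the groups form a run of 19 bins, chr18:36900001-37850000, called the cluster here. The 18 bins to its left and the 23 bins to its right, out to 36 and 39 Mb, are called the left and the right flank.

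Clustered protocadherins are cell-surface adhesion proteins best known from neurons, where each cell uses a small and largely random choice of promoters and so acquires a surface identity by which its own branches recognise and avoid each other. Alpha and gamma genes each have a variable first exon that is spliced to shared constant exons at the end of the group, whereas beta genes consist of a single coding exon. In neurons, promoter choice runs through looping by CTCF and cohesin between promoters and enhancers, one of which lies downstream of the alpha constant exons, and the unused promoters carry methylated DNA and compact chromatin. None of these roles was measured here.

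The contacts came from HiChIP, which ligates chromatin fragments that lie close together in the nucleus and then precipitates those that carry a chosen protein, here Foxa2, a pioneer transcription factor of the liver. One library was made from liver of wildtype mice that received GW4064, an agonist of the bile acid receptor FXR, by a single oral gavage, and 1 from liver of wildtype mice that received the vehicle of propylene glycol and Tween 80. All animals were killed 4 h after gavage, and about 200 mg of each liver was used. The sources used here do not give age or sex, or say whether several livers were pooled. With 1 library per group there is no test of the treatment. Every interval below is a 95% interval that covers counting error only, and a difference compares the libraries and not the conditions. Contact counts do not measure expression, so the labelled tissue could not be checked against its marker genes. Foxa2 precipitation and contact frequency of a bin cannot be told apart in these counts. Duplicated or repetitive sequence among the near-identical tandem exons can lower the number of reads placed there, and its part in the counts was not tested.

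The GW4064 library held 29003442 contacts and the vehicle library 22686004, a ratio of 1.28. Between 36 and 39 Mb of chromosome 18 they held 15438 and 11816 contacts, and between different bins of the cluster 1792 and 1185. Of the 171 bin pairs of the cluster, 9 had no contact in the GW4064 library and 17 in the vehicle library. A single 50 kb bin holds up to 8 gene starts, so the counts resolve stretches of genes and never single promoters.

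Every member bin was covered in both libraries, and the mean over the cluster was close to that of an ordinary stretch of the genome. Single member bins ran from the 25.6th to the 95.2nd percentile of bins in the GW4064 library. In the vehicle library they ran from the 21.8th to the 96th. Total contacts per member bin ran from 778 through a median of 1029 to 1427 in the GW4064 library, and from 661 through 799.5 to 1044 in the vehicle library. The bin that holds the start of Pcdhac1 was the highest in both libraries, with 1427 and 1044 contacts, followed by the bin of Pcdhac2 with 1395 and 1040. Both are C-type genes, which most neurons use without the random choice. The bin of the C-type gamma genes Pcdhgc3, Pcdhgc4 and Pcdhgc5, at the far end of the cluster, was the lowest, with 778 and 661 contacts. Mean total contacts per bin over the cluster were 1079 and 815, at the 56.7th and 49.1st percentile of 47178 runs of 19 bins on chromosomes 1 to 19.

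The member bins were then compared with the flanks and the genome by where their contacts went. Contacts within 1 Mb in other bins made up 14.1% (13.5 to 14.6) of member-bin contacts in the GW4064 library and 12.4% (11.8 to 13.0) in the vehicle library. Contacts over 1 Mb away on the same chromosome made up 42.5% (41.8 to 43.3) and 41.8% (40.9 to 42.7). A low local share was not particular to the member bins, since the left flank had 16.1% and 13.7%. The right flank had 21.2% and 19.3%, and the whole libraries 23.6% and 21.2%. The share over 1 Mb away was lower in both flanks, at 31.3% and 31.0% on the left and 30.5% and 29.9% on the right. Summed over the 19 bins of the cluster, the share of bin contacts that were local was 20.3% and 17.9%, against medians of 27.2% and 24.1% over all runs of 19 bins, at the 3.25th and 3.62nd percentile. On the same footing the share over 1 Mb away was 39.6% and 39.1%, against medians of 35.5% and 35.9%, at the 73.8th and 69.3rd percentile, so of these shares only the local one stood near the end of its range.

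**Figure D1:**
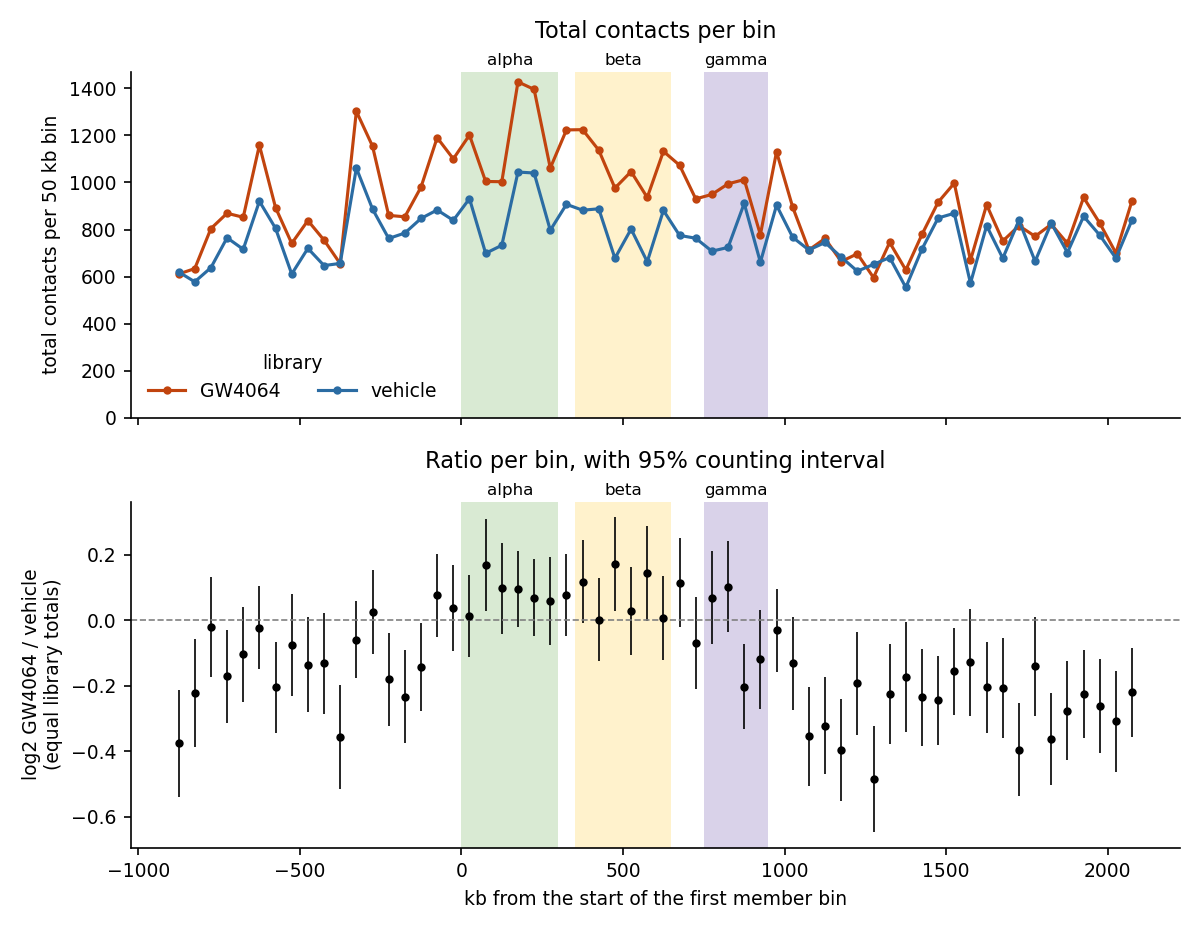
Total contacts in each 50 kb bin from 36 to 39 Mb of chromosome 18, in the GW4064 and the vehicle library (upper panel), and the log2 ratio of GW4064 over vehicle after scaling to equal library totals, with its 95% counting interval (lower panel). The horizontal axis is the distance in kb from the start of the first member bin, and shading marks alpha, beta and gamma bins. Ratios of alpha and beta bins sit at or just above 0, the last 2 gamma bins below it, and most flank bins below 0.

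Taken as a whole, the flanks had few contacts with the cluster for their distance. Bin pairs that join the cluster with the left flank had 338 contacts in the GW4064 library, 0.387 (0.347 to 0.431) of the number expected from the mean of all autosomal bin pairs at the same distances, and 236 contacts in the vehicle library, 0.379 (0.333 to 0.431) of expectation. With the right flank the cluster had 341 contacts, 0.349 (0.313 to 0.388) of expectation, in the GW4064 library and 248 contacts, 0.354 (0.312 to 0.401), in the vehicle library. The bins next to the cluster differed from the rest of the flanks. With cluster bins at least 100 kb away, the first right-flank bin, in Diaph1, stood at 1.42 (1.19 to 1.70) and 1.39 (1.11 to 1.71). The last left-flank bin stood at 1.02 (0.818 to 1.25) in the GW4064 library and 0.684 (0.493 to 0.925) in the vehicle library. Relative to distance, the flanks as a whole met each other more often than either met the cluster lying between them. Pairs that join left and right flank stood at 0.593 (0.514 to 0.681) and 0.693 (0.595 to 0.803) of expectation, over distances of 1000 to 2950 kb.

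The depletion was close to equal in both libraries. The log2 ratio of GW4064 over vehicle, scaled to equal totals at each distance, was 0.03 (-0.21 to 0.27) for the left flank and -0.02 (-0.26 to 0.22) for the right flank. When the total contacts of both bins were also taken into account, the values were 0.371 and 0.359 for the left flank, and 0.425 and 0.376 for the right flank.

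**Figure D2:**
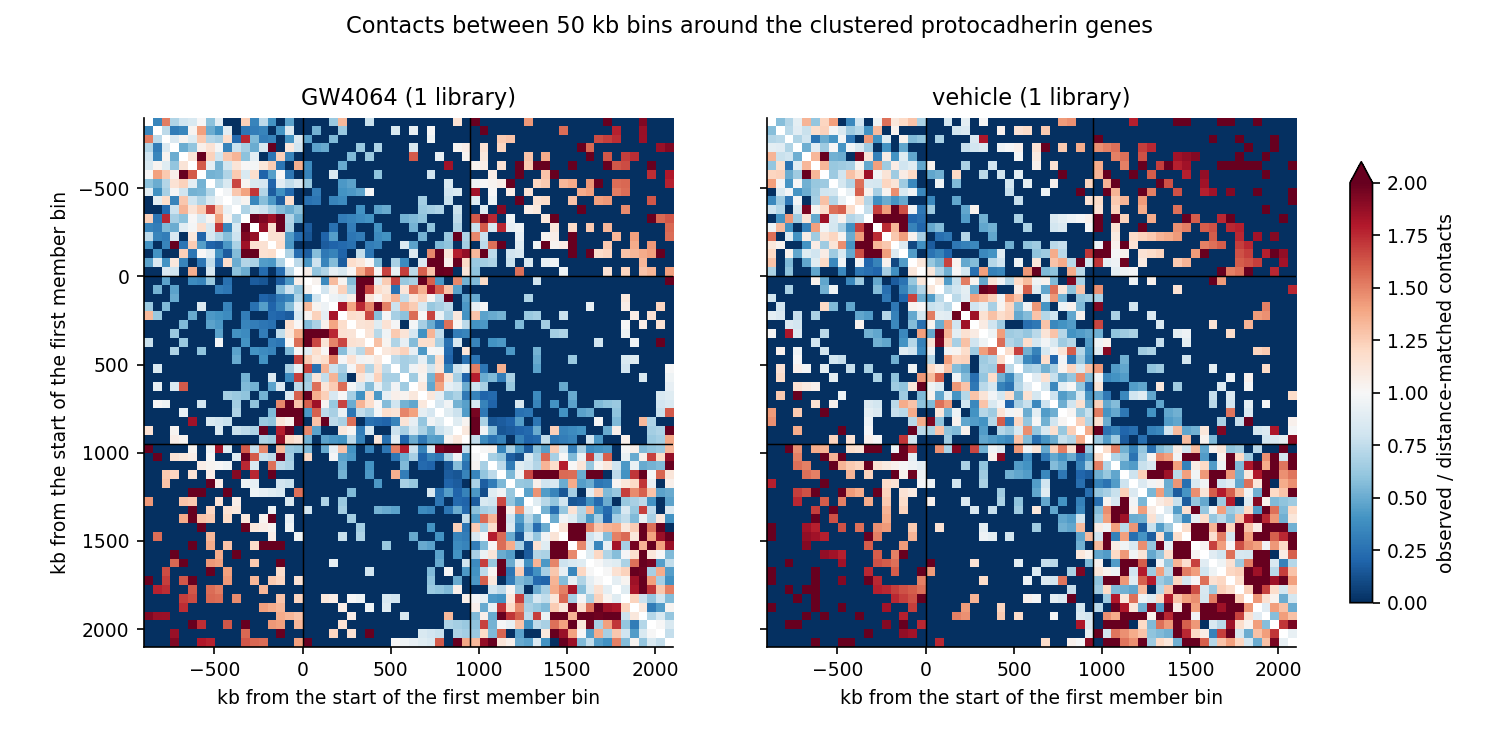
Contacts between all pairs of 50 kb bins from 36 to 39 Mb of chromosome 18, divided by the mean of autosomal bin pairs at the same distance, in the GW4064 library (left) and the vehicle library (right). Both axes give the distance in kb from the start of the first member bin, black lines mark the ends of the cluster, and the colour runs from blue (0) through white (1) to red (2 and above). The blocks that join the cluster with the flanks are mostly blue in both maps. As a whole they stood at 0.387 and 0.349 of expectation in the GW4064 library and 0.379 and 0.354 in the vehicle library.

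Inside the cluster, contacts were close to those of any autosomal stretch of the same length and did not exceed them. The 171 pairs stood at 0.978 (0.934 to 1.02) of the distance expectation in the GW4064 library and 0.919 (0.868 to 0.973) in the vehicle library. With total coverage included these became 0.858 (0.819 to 0.899) and 0.869 (0.820 to 0.920). They turned to 1.59 and 1.64, above expectation, when coverage was taken from local contacts alone, which are few in these bins.

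The order of the gene groups depended on the expectation used and on whether adjacent bins were counted. Pairs within the alpha group stood at 1.09 (0.981 to 1.21) and 1.13 (1.00 to 1.28) of the distance expectation in the GW4064 and the vehicle library, and pairs within the beta group at 0.896 (0.798 to 1.00) and 0.912 (0.796 to 1.04). Pairs within the gamma group stood at 0.911 (0.775 to 1.06) and 1.08 (0.908 to 1.28). With total coverage included, alpha pairs stood at 0.802 (0.723 to 0.888) and 0.937 (0.830 to 1.055). Beta pairs then stood at 0.823 and 0.929, and gamma pairs at 1.06 and 1.18, the highest of the 3. Against distance alone and without adjacent bins, gamma pairs were instead the lowest, at 0.787 (GW4064) and 0.693 (vehicle). Alpha pairs then stood at 0.969 and 0.869, and beta pairs at 0.905 and 0.740. When coverage was taken from local contacts alone, all 3 classes lay above expectation, with alpha at 1.59 and 1.77, beta at 1.60 and 1.77 and gamma at 1.77 and 1.99. Relative to distance, contacts thinned towards the gamma genes, with beta-gamma pairs at 0.764 (0.623 to 0.926) and 0.785 (0.616 to 0.988) and alpha-gamma pairs at 0.748 (0.548 to 0.998) and 0.501 (0.314 to 0.759).

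Of these 6 classes, alpha-beta pairs were the only one whose ratio between the libraries had an interval that excluded 0. They had 241 contacts, 1.13 (0.993 to 1.28) of the distance expectation, in the GW4064 library and 123 contacts, 0.838 (0.697 to 1.00), in the vehicle library. The log2 ratio of GW4064 over vehicle was 0.43 (0.11 to 0.76), and 0.28 (-0.04 to 0.60) once the coverage of both bins was included, so the interval then held 0. Alpha-gamma pairs had a log2 ratio of 0.58 on 46 and 22 contacts, with an interval of -0.19 to 1.38.

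**Figure D3:**
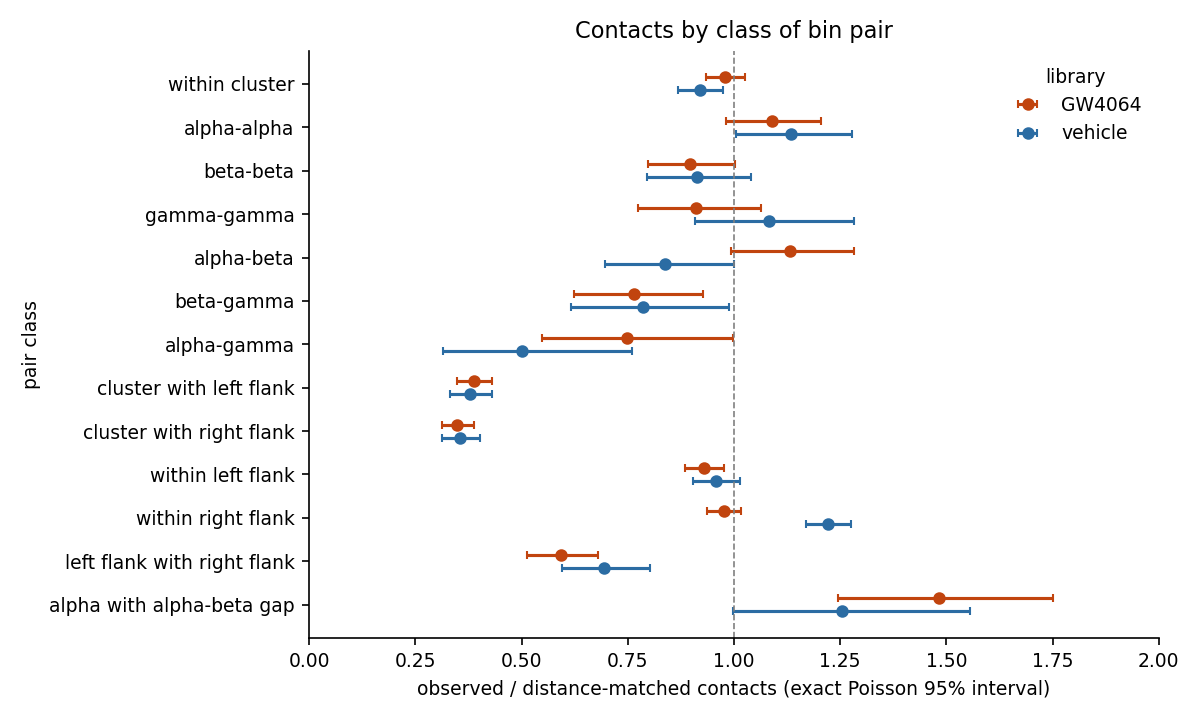
Observed over distance-matched contacts for 13 classes of bin pairs, with exact Poisson 95% intervals, for the GW4064 and the vehicle library. Pairs of the cluster with the flanks sit between 0.349 and 0.387 in both libraries, pairs within the gene groups lie near 1, and alpha-beta pairs are at 1.13 in the GW4064 library and 0.838 in the vehicle library.

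The edges of this separated stretch were measured as insulation, the log2 of the mean contacts across a bin edge in a square of 500 kb over the chromosome mean, where a low value marks an edge that few contacts cross. On the left, the lowest value of the region lay 100 kb before the first member bin, at position 36800001. This edge lies between the bin of Zmat2 and a stretch that holds no protein-coding gene. The value was -1.91 in the GW4064 library and -1.96 in the vehicle library, with 134 and 87 contacts crossing. Insulation then climbed through the alpha genes to its highest value inside the cluster, 0.07 at the end of the alpha group in the GW4064 library and -0.17 one bin earlier in the vehicle library. It declined again through the beta and gamma genes.

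On the right, the lowest value lay beyond the gamma genes, inside or just past Diaph1, which encodes a formin that assembles actin. In the GW4064 library it was -1.54 at 37950001, and in the vehicle library -1.29 at 37900001. A shallower minimum fell at or within the gamma group, -1.15 at 37700001 in the GW4064 library and -0.85 at 37650001 in the vehicle library. All 6 passed the depth of 0.2 used to call a boundary, which 8.19% of the edges of chromosome 18 reached in the GW4064 library and 7.85% in the vehicle library. The 2 libraries placed the left boundary at the same edge and the others 1 bin apart. The gamma minimum was less firm than the outer boundaries. It was not called in a square of 1 Mb in either library, nor in the vehicle library after iterative correction, and in a square of 250 kb the libraries placed it 2 bins apart, at 37700001 (GW4064) and 37600001 (vehicle).

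**Figure D4:**
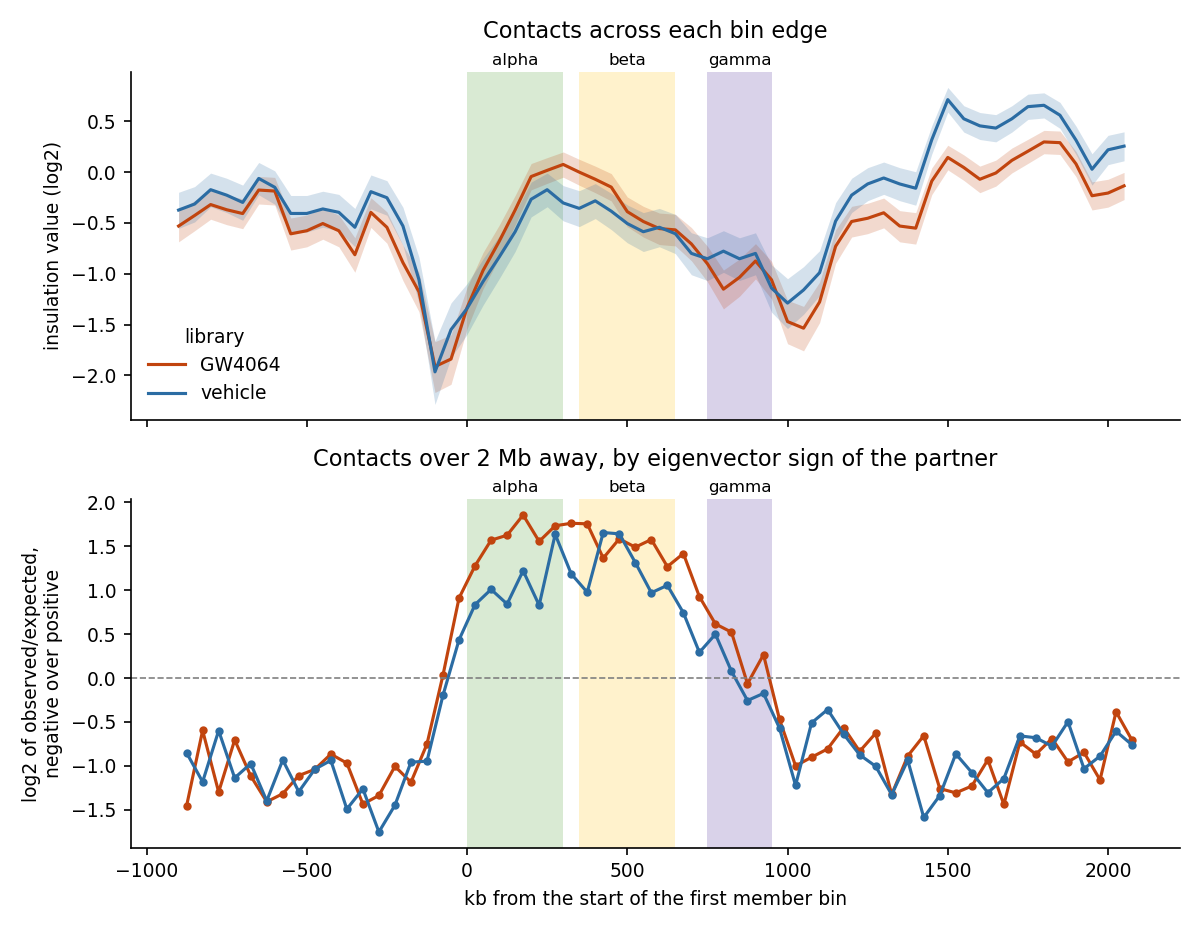
Insulation value (log2) at each bin edge with its 95% counting interval (upper panel), and the log2 of observed over expected contacts with distant windows of negative eigenvector over those with windows of positive eigenvector for each bin (lower panel), in the GW4064 and the vehicle library. The horizontal axis is the distance in kb from the start of the first member bin, and shading marks the gene groups. Insulation is lowest 100 kb left of the alpha genes, at -1.91 and -1.96, and the lower panel is above 0 over all alpha and beta bins and declines through the gamma bins.

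The cluster kept company with a different class of chromatin from its flanks. Chromosome 18 was divided into windows of 250 kb, and the first eigenvector of their contact pattern was computed. It was oriented so that positive values go with gene-rich windows, which is the usual way to separate the more open from the more closed compartment. Its correlation with the gene count of a window was modest, at 0.319 in the GW4064 library and 0.340 in the vehicle library. The sign is thus no close measure of gene content. All flank windows outside those that touch the cluster were positive, between 1.01 and 1.21 in the GW4064 library and between 0.94 and 1.47 in the vehicle library. Of the 5 windows from 36750001 to 38000000 that hold the cluster, the first 4 were negative, at -0.66, -1.54, -1.40 and -0.91 in the GW4064 library and -0.37, -1.33, -1.43 and -0.77 in the vehicle library. The fifth, with the last gamma genes, Diaph1 and Hdac3, was positive at 0.71 and 0.93. In windows of 500 kb the middle of the cluster stayed negative, at -1.36 and -1.35. The first of the 5 windows, then joined with the left flank, changed sign to 0.18 and 0.59, and the fifth, then joined with the fourth, to -0.31 and -0.03. Over the whole chromosome 339 of 350 windows had the same sign in both libraries.

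Contacts over 2 Mb away show the size of this division. They are not a second line of evidence, since the windows take their sign from contacts of the same chromosome in the same library, those of the member bins among them. With negative windows the member bins had 5157 contacts, 1.99 (1.94 to 2.05) of the number expected at those distances on chromosome 18, in the GW4064 library and 3534 contacts, 1.73 (1.68 to 1.79), in the vehicle library. With positive windows they had 0.833 (0.791 to 0.876) and 0.945 (0.896 to 0.995) of expectation. The flanks did the opposite, since the left flank met negative windows at 0.640 and 0.630 of expectation and positive windows at 1.10 and 1.17. The right flank met negative windows at 0.505 and 0.575 and positive windows at 0.919 and 1.05.

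Read bin by bin, the preference was strong over alpha and beta genes and faded across the gamma genes. As a log2 of the negative over the positive value, the 6 alpha bins ran from 1.28 to 1.85 in the GW4064 library and from 0.83 to 1.63 in the vehicle library, and the 6 beta bins from 1.27 to 1.75 and from 0.97 to 1.65. The 4 gamma bins, in their order along the chromosome, had 0.62, 0.52, -0.06 and 0.27 in the GW4064 library and 0.50, 0.08, -0.26 and -0.17 in the vehicle library. The highest gamma value lay below the lowest alpha or beta value in both libraries. These are neighbouring bins, and how often neighbouring runs of bins separate like this elsewhere was not measured. The bins at 36800001 and 36850001, between Zmat2 and Pcdha1, hold no protein-coding gene. They had 0.03 and 0.91 in the GW4064 library and -0.20 and 0.43 in the vehicle library. The bin of Zmat2 itself had -0.75 and -0.95.

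The preference was higher in the GW4064 library for 14 of the 16 member bins, the exceptions being the beta bins of Pcdhb3 to Pcdhb7 and of Pcdhb8. It was also higher there for all 3 gap bins, 10 of the 18 left-flank bins and 14 of the 23 right-flank bins. The share over all bins of chromosome 18 was not measured, so the count is a description of neighbouring bins. The first eigenvector of chromosome 18 was also stronger in that library, with 0.256 of the summed absolute eigenvalues against 0.212 in the vehicle library. Its part in the difference was not tested.

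Of the windows over 2 Mb away, those highest relative to the expectation at their distance lay near the far end of chromosome 18. The window starting at 88000001, which holds no protein-coding gene, had 33 contacts, 5.09 (3.51 to 7.15) of expectation, in the GW4064 library and 18 contacts, 3.51 (2.08 to 5.55), in the vehicle library. The next were the window of Neto1, a kainate receptor subunit of neurons, at 4.37 and 3.57, and another window without protein-coding genes at 88500001, at 4.70 and 2.96. All of these had a negative eigenvector. The lowest windows on that scale were positive and held Gata6 (1 and 3 contacts), Dym, Smad7 and Ctif (0 and 4), and Tmem241, Riok3, Rmc1 and Npc1 (3 and 0).

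Contacts with other chromosomes, which do not enter the eigenvector, also differed between the cluster and its flanks. Partner bins were put into 4 classes of similar size by the number of protein-coding genes in the 21 bins around them, and contacts were compared with the share of all contacts between chromosomes that each class takes. Member bins met the gene-poorest class, with 0 to 2 genes, at 1.201 (1.14 to 1.26) of expectation in the GW4064 library and 1.15 (1.09 to 1.22) in the vehicle library. They met the gene-richest class, with 13 to 75 genes, at 0.792 (0.736 to 0.851) and 0.851 (0.792 to 0.914). The left flank showed the reverse, at 0.602 and 0.669 for the gene-poorest and 1.47 and 1.42 for the gene-richest class, and so did the right flank, at 0.592 and 0.676 and at 1.38 and 1.35. The member bins themselves lie in one of the most gene-dense stretches annotated, with 62 protein-coding genes in the 19 bins against a median of 5, the 99.9th percentile of all such runs.

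Of the pairs inside the cluster, the one farthest above the distance and coverage expectation joined the bin in which Pcdha4 to Pcdha9 start with the gap bin chr18:37200001-37250000 that follows the alpha constant exons. It had 19 contacts, 2.24 (1.35 to 3.50) of expectation, in the GW4064 library and 18 contacts, 3.66 (2.17 to 5.79), in the vehicle library. The bin of Pcdha10 to Pcdha12 with the same gap bin came next, at 19 contacts, 1.83 (1.10 to 2.86), and 8 contacts, 1.27 (0.548 to 2.50). Among all autosomal pairs 250 kb apart, 3.16% had at least 19 contacts in the GW4064 library and 0.883% at least 18 in the vehicle library. By observed over expected the pair was less unusual, since 28.9% of the pairs at that distance with the minimum count (10 contacts in the vehicle library, scaled to depth in the GW4064 library) stood at least as high in the GW4064 library and 8.68% in the vehicle library. After these came the neighbouring gamma bins of Pcdhgb7 to Pcdhga12 and of the C-type gamma genes, with 48 and 43 contacts, 1.46 (1.08 to 1.94) and 1.43 (1.04 to 1.93) of expectation. The lowest pair with enough contacts joined the neighbouring alpha bins of Pcdha10 to Pcdha12 and of Pcdhac1, with 41 and 23 contacts, 0.687 (0.493 to 0.932) and 0.604 (0.383 to 0.907). All 5 lowest pairs lay within the alpha group or joined it to the gap bin. Pairs picked by this ranking are a description, since the ranking chose them.

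That gap bin was taken up because of its pair with the bin of Pcdha4 to Pcdha9, which is part of the counts that follow. With alpha bins at least 100 kb away it had 89 contacts, 1.79 (1.44 to 2.20) of the distance expectation, in the GW4064 library and 48 contacts, 1.41 (1.04 to 1.87), in the vehicle library. Without the bin of Pcdha4 to Pcdha9 it had 70 contacts, 1.64 (1.28 to 2.07), in the GW4064 library and 30 contacts, 1.03 (0.696 to 1.47), in the vehicle library, where the excess thus rested on that pair. With beta bins it had 0.945 (0.694 to 1.26) and 0.913 (0.620 to 1.30), and with gamma bins 0.364 (0.118 to 0.850) and 0.518 (0.168 to 1.21), on 5 contacts each. Against the distance and coverage expectation the alpha values were 1.204 and 1.06, since these bins have high total counts.

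The bin just past the gamma genes, chr18:37850001-37900000, which lies in Diaph1, was singled out after the map had been seen. It had 90 contacts with the 3 gamma bins at least 100 kb away in the GW4064 library, 2.46 (1.97 to 3.02) of the distance expectation, and 52 contacts, 2.08 (1.55 to 2.73), in the vehicle library. The bin of Pcdhgb7, Pcdhga11, Pcdhgb8 and Pcdhga12 gave the largest number, with 42 and 34 contacts, 2.30 (1.66 to 3.11) and 2.31 of the distance and coverage expectation. The bin of Pcdhga6 to Pcdhga10 had 31 contacts with the Diaph1 bin in the GW4064 library and 9 in the vehicle library. With beta bins the Diaph1 bin stood at 0.857 (0.523 to 1.32) and 0.919 (0.515 to 1.52), and with alpha bins at 0.630 (0.272 to 1.24) and 0.983 (0.450 to 1.87). Summed over the 3 gamma bins and relative to distance, contacts with the Diaph1 bin thus exceeded beta-gamma and alpha-gamma contacts in both libraries. In the vehicle library 34 of the 52 contacts came from the bin of Pcdhgb7 to Pcdhga12. The bin of Pcdhga6 to Pcdhga10 stood at 2.72 of the distance expectation in the GW4064 library and 1.16 in the vehicle library. The value without the bin of Pcdhgb7 to Pcdhga12 was not computed, so the vehicle excess is not shown for every gamma bin.

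**Figure D5:**
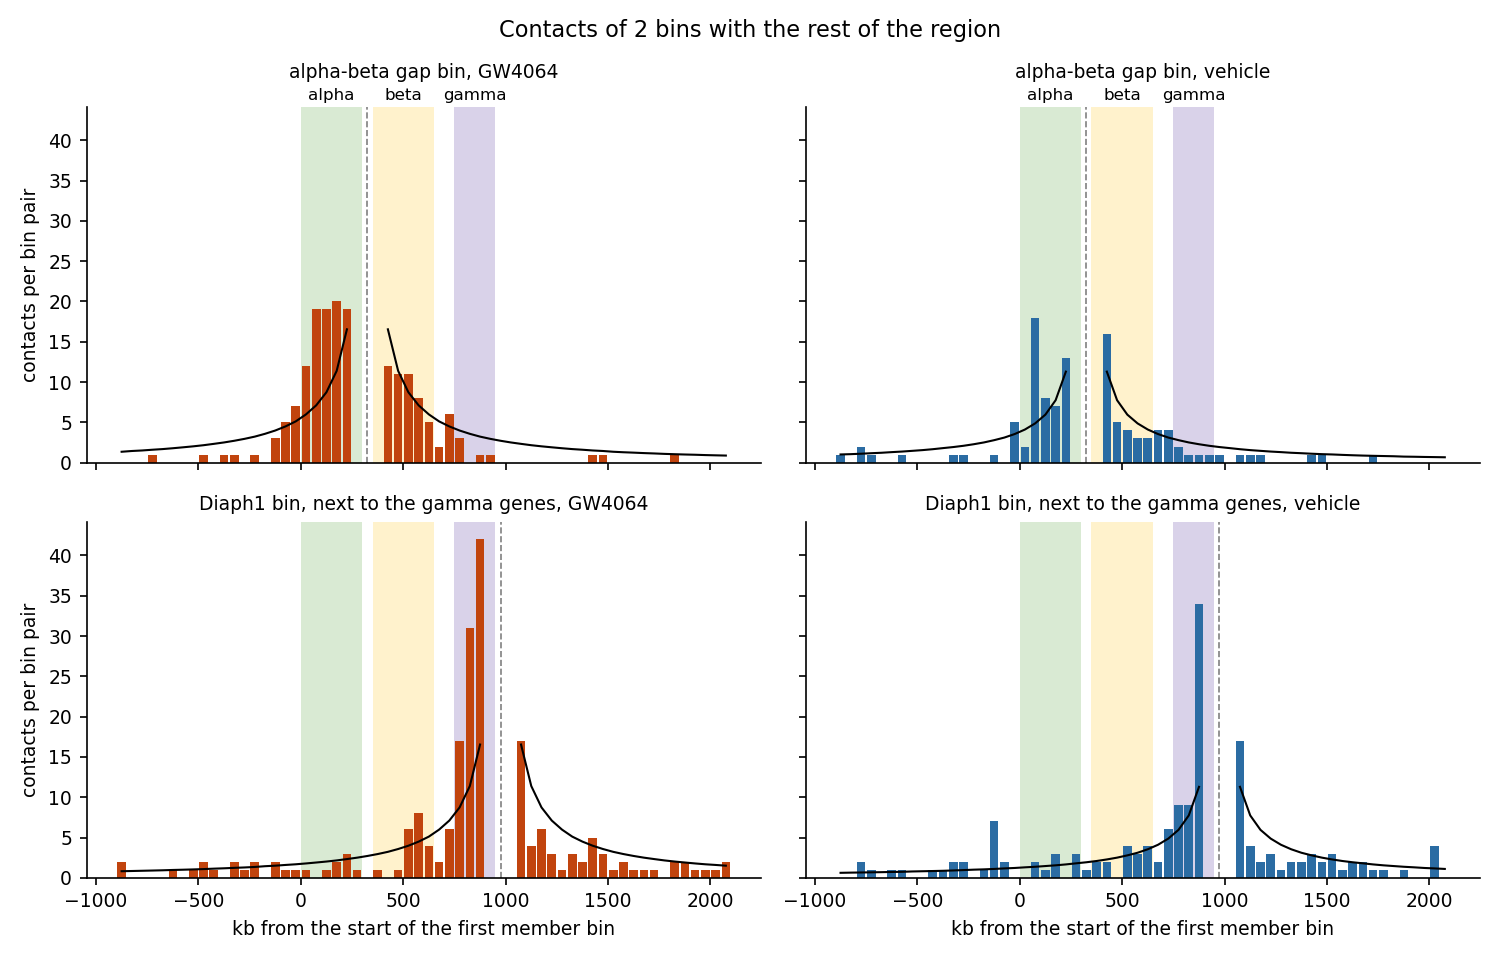
Contacts per bin pair of the gap bin between alpha and beta genes (upper row) and of the Diaph1 bin next to the gamma genes (lower row) with every other bin at least 100 kb away, in the GW4064 library (left) and the vehicle library (right). Bars are counts, black lines the autosomal mean at the same distance, dashed lines the bin itself, and the horizontal axis the distance in kb from the start of the first member bin. The gap bin has 19 and 18 contacts with the bin of Pcdha4 to Pcdha9, and the Diaph1 bin 42 and 34 with the bin of Pcdhgb7 to Pcdhga12.

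The 3 bins just left of the cluster, also picked from the map, met the gamma genes at the opposite end of the cluster with 38 contacts, 1.71 (1.21 to 2.35) of the distance expectation, in the GW4064 library and 13 contacts, 0.807 (0.429 to 1.38), in the vehicle library. The log2 ratio of GW4064 over vehicle was 1.08 (0.14 to 2.12). With the Diaph1 bin the order was the other way, on 4 contacts, 0.836 (0.228 to 2.14), in the GW4064 library and 9 contacts, 2.57 (1.18 to 4.89), in the vehicle library. They met the alpha genes beside them at 0.543 (0.430 to 0.675) and 0.575 (0.437 to 0.744). Because these bins were chosen for how they looked, the ratio is a description on few contacts.

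Few pairs inside the cluster reached 2 times the distance and coverage expectation with the minimum count of 10 in the vehicle library, or its depth-scaled equivalent in the GW4064 library. Only the pair of Pcdha4 to Pcdha9 with the gap bin did, in both libraries. That is 1 of 24 pairs with the minimum count in the GW4064 library, 4.17%, against 26.8% of all autosomal pairs, and 1 of 8 in the vehicle library, 12.5%, against 31.4%. In the whole stretch from 36 to 39 Mb, 31 of 75 pairs reached it in the GW4064 library and 33 of 64 in the vehicle library, 18 of them in both, and all the others lay within 1 flank or joined the gamma genes to Diaph1.

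Pairs inside the cluster at least 100 kb apart with at least 20 contacts over both libraries numbered 22. At 2-fold or more, 1 was higher in the GW4064 library, against 7.13% of such pairs in the autosomes, and 0 were lower, against 4.26%. Of the 22, 16 had a log2 ratio above 0, 72.7% against 52.9% of such autosomal pairs, and their median was 0.41 beside 0.03. The pair that was higher joined the gap bin at 37550001 with the bin of Pcdhga1 to Pcdhga5, with 15 and 5 contacts and an interval of the log2 ratio of -0.50 to 2.85. The next highest were the bin of Pcdhac1 with the gap bin after the alpha exons, 20 and 7 contacts, and with the last alpha bin, 23 and 9 contacts. Lowest was the gap bin after the alpha exons with the bin of Pcdhb3 to Pcdhb7, 12 and 16 contacts, at a log2 ratio of -0.97 (-2.18 to 0.21). The interval of each of these pairs included 0. Among neighbouring bins, the bin of Pcdhac2 with the last alpha bin had 51 and 58 contacts, a log2 ratio of -0.65 (-1.22 to -0.08).

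Over all member bins, local contacts numbered 2258 in the GW4064 library and 1506 in the vehicle library, a log2 ratio of 0.08 (-0.02 to 0.17) after scaling to equal totals of local contacts. Of 16 member bins, 0 were at least 1.5-fold higher in the GW4064 library with an interval excluding 1, against 0.226% of all bins, and 0 were at least 1.5-fold lower, against 3.19%. By the interval alone 0 were higher, against 10.2%, and 0 lower, against 14.3%. Local ratios of single bins ran from -0.27 for the bin of Pcdhgb7 to Pcdhga12 to 0.32 for the bin of Pcdhga1 to Pcdhga5, both gamma bins. By group the log2 ratio was 0.12 (-0.03 to 0.26) for alpha, 0.13 (-0.02 to 0.27) for beta and 0.07 (-0.10 to 0.25) for gamma bins.

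Total contacts had a log2 ratio of 0.04 (0.01 to 0.08), with 2 member bins above 0 by their interval (20.7% of all bins were) and 1 below it (28.4%). Those above were the bins of Pcdha4 to Pcdha9 and of Pcdhb8, both at 0.17, and the one below was the bin of Pcdhgb7 to Pcdhga12, at -0.20. The flanks were lower in the GW4064 library, at -0.13 (-0.17 to -0.10) on the left and -0.25 (-0.28 to -0.22) on the right. Contacts within a single bin gave 0.13 (0.04 to 0.22) over all members and 0.27 (0.13 to 0.42) over the beta bins, where 1091 such contacts stood against 652. For 4 of the 16 member bins this ratio lay above 0 by its interval, against 7.98% of all bins, and for 0 below it, against 7.18%. Those above were the bins of Pcdha4 to Pcdha9, of Pcdhb1 and Pcdhb2, of Pcdhb3 to Pcdhb7 and of Pcdhb8. Very short contacts of this kind include fragments that were never ligated over a distance, and they enter the total contacts and the coverage expectation but no other class.

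The median log2 ratio of local contacts was 0.09 over the 16 member bins, all of which have 31 or more protein-coding genes within the 21 bins centred on them. Over all bins of that gene-dense class the median was -0.33, and over bins with 0 genes it was 0.16. With the protocadherin genes themselves left out of the gene count, 8 member bins moved to the class of 13 to 30 genes, with a median of -0.19 over all its bins, 7 to the class of 6 to 12, at -0.04, and 1 to the class of 1 to 5, at 0.08.

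The relatives of the family outside the cluster were read from a list of 12 non-clustered protocadherins, single genes that encode similar adhesion proteins. All 12 had at least 200 local contacts over both libraries. By their intervals 5 were higher in the GW4064 library, against 5.28% of all protein-coding loci, and 2 were lower, against 41.0%, with a median log2 ratio of 0.14 beside -0.17 over all loci. The highest was Pcdh18, with 508 and 297 local contacts and a ratio of 0.27 (0.06 to 0.48). The 2 that were lower, Pcdh1 at -0.43 (-0.67 to -0.20) and Pcdh12 at -0.34 (-0.65 to -0.01), are the only ones that lie in the right flank of the cluster. By the same count 0 of the 57 protein-coding clustered genes were called in either direction, with a median of 0.08 and a range from -0.17 to 0.25 over genes that share bins. The background of all loci was not matched for gene density or locus length, and their part in the counts of the 12 genes was not tested. Bins with 0 protein-coding genes around them had a median of 0.16, and bins with 1 to 5 had 0.08. Long loci such as Pcdh15, with 5786 and 3532 local contacts, have narrow intervals.

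Genes that encode known regulators of clustered protocadherins numbered 13. By their intervals 5 were lower in the GW4064 library, against 41.0% of all protein-coding loci, and 1 was higher, against 5.28%, with a median of 0.04. Both counts are near the background and are not a result about the regulators. The lowest was Wiz, a zinc finger protein tied to CTCF and cohesin, with 141 and 178 local contacts and a ratio of -0.85 (-1.17 to -0.52). Also lower were Setdb1, a histone methyltransferase that compacts the cluster in mouse neurons, at -0.45, Ctcf at -0.45, Dnmt3b, a DNA methyltransferase that marks its promoters in the mouse embryo, at -0.30, and Wapl, which releases cohesin, at -0.26. Stag1, a cohesin subunit, was the one that was higher, at 0.14 (0.05 to 0.24). Smchd1, which represses the clustered genes in the mouse, had 0.11 (-0.04 to 0.27). These are contacts of the gene loci and not levels of the proteins.

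Of the genes next to or within the cluster, Slc25a2, a mitochondrial ornithine carrier, and Taf7, a subunit of the general transcription factor TFIID, share the gap bin between beta and gamma genes, with 204 and 118 local contacts and a log2 ratio of 0.28 (-0.05 to 0.62). Zmat2 on the left had 0.18 (-0.14 to 0.50), Diaph1 on the right -0.10 (-0.29 to 0.10), and Hdac3, a histone deacetylase, -0.26 (-0.50 to -0.02). The read-through genes Gm37013, Gm38666 and Gm38667, are annotated from alpha into gamma over 18 bins, so their counts are those of the cluster.

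The protocadherin cluster had fewer internal contacts for its coverage than the 3 other tandem gene families that were measured. Against the distance and coverage expectation it stood at 0.858 (0.819 to 0.899) in the GW4064 library and 0.869 (0.820 to 0.920) in the vehicle library. These values lie at the 24.5th and 20.8th percentile of all runs of 19 bins. The keratin type I genes on chromosome 11 stood at 1.40 (1.33 to 1.46) and 1.16 (1.10 to 1.22) in the GW4064 and the vehicle library, the keratin type II genes on chromosome 15 at 1.72 (1.60 to 1.84) and 1.32 (1.22 to 1.42), and the Serpina genes on chromosome 12 at 1.83 (1.74 to 1.93) and 1.66 (1.57 to 1.74). The intervals of these 3 families do not overlap those of the protocadherins. The protocadherin bins had a median of 1046 total contacts in the GW4064 library, against 795, 607 and 705 for keratin type I, keratin type II and Serpina, and of 797 in the vehicle library, against 670.5, 586 and 700. Against distance alone the order changed, with 0.978 and 0.919 for the protocadherins, 0.852 and 0.836 for keratin type I, 0.627 and 0.781 for keratin type II and 0.913 and 1.27 for Serpina. The log2 ratio of local contacts was 0.08 for the protocadherin cluster, against -0.09, -0.33 and -0.45 for the same 3 families.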

How the data were processed

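Foxa2 HiChIP was measured in 1 GW4064 and 1 vehicle library of wildtype mouse liver. Per the submitters' processing notes, HiC-Pro was run with Bowtie2 2.2.9 against mm10. The HiC-Pro version, read filters, duplicate removal and pooling are not stated by the sources used here. In the files deposited by the authors, matrices hold raw whole-number counts of contacts per pair of 50 kb bins, and bin tables give each bin's position and an index of no other unit. Gene positions came from a RefSeq table of GRCm38.p6, the assembly that mm10 names. Sequences of this chromosome are not printed.

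Expected counts were the mean over autosomal bin pairs at the same distance, or that times coverage factors of both bins. Ratios of GW4064 over vehicle were scaled to equal totals of the same class or distance. Observed over expected values have exact Poisson, shares Clopper-Pearson and ratios exact conditional binomial 95% intervals, which cover counting error only. Bins needed 200 and pairs 20 contacts over both libraries, and boundaries a depth of 0.2. The named far windows lay wholly over 2 Mb from every member bin. Summed far contacts and the preference of single bins used partners over 2 Mb from the bin in question. The steps ran in Python 3.11.15 with scipy 1.17.1, matplotlib 3.10.9, pandas 2.3.3 and numpy 2.4.6, and were tested on simulated data. Named items were, by rule, every member bin, the 5 highest and 5 lowest pairs by expectation and the 3 highest and 3 lowest by ratio. The rule also took the neighbouring genes and the list members with the highest and lowest ratio. Far windows were the 3 highest and the 3 lowest by observed over expected contacts. Other names were added after their values were seen. The members and lists were chosen with earlier results of these data known. Alternatives covered scaling, contact class, expectation, minimum counts, insulation square and window size.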

Additional observations from a re-analysis of the deposited data

How the results depend on the processing

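The depletion between the cluster and its flanks, the negative mean compartment value of the 5 windows and the absence of member bins at 1.5-fold held under every alternative run. Of those 5 windows, the first (0.18 in the GW4064 and 0.59 in the vehicle library) and the fifth (-0.31 and -0.03) changed sign in windows of 500 kb. The log2 ratio of local contacts in the cluster was 0.23 with equal library totals and 0.29 relative to bins with over 12 genes, an alternative chosen after seeing the data, and stayed above 0 in the others. Contacts within the cluster in the GW4064 library were 0.858 with coverage in the expectation, 0.855 after iterative correction of the chromosome and 1.59 with coverage from local contacts. In the vehicle library they were 0.855 after iterative correction and 0.804 without adjacent bins. With local coverage they were 1.64, on the other side of 1. Local coverage was low in these bins, and its part in this reversal was not tested. The ratio within the cluster was -0.019 with coverage and 0.23 without adjacent bins. With local coverage the cluster stood at 0.626 (GW4064) and 0.612 (vehicle) with the left flank and 0.558 and 0.480 with the right flank, and with total coverage at 0.425 with the right flank in the GW4064 library. Enriched pairs of the region numbered 67 (GW4064), 61 (vehicle) and 36 (both) at a minimum of 5 contacts, and 16 (GW4064) and 10 (both) against distance alone. Pairs 2-fold apart numbered 12 at a minimum of 10 contacts. No share over all autosomal pairs is given at these settings, so these counts are not a result about the region or the cluster. Insulation at the first member bin was -1.02 (GW4064) and -0.76 (vehicle) in a 250 kb square, and at the end of the last member bin -0.50 and -0.61 in a 250 kb and -1.63 and -1.46 in a 1 Mb square. Among single pair classes, the vehicle value within alpha was 0.937 with coverage, 0.934 after iterative correction and 0.869 without adjacent bins. Without adjacent bins the vehicle value was 0.740 within beta and 0.693 within gamma. With local coverage, alpha-alpha was 1.59 (GW4064) and 1.77 (vehicle), beta-beta 1.60 and 1.77, gamma-gamma 1.77 and 1.99, alpha-beta was 1.35 (vehicle), beta-gamma 1.41 (GW4064) and 1.54 (vehicle) and alpha-gamma 1.22 (GW4064). Within the left flank the GW4064 value was 1.17 with coverage, 1.18 after iterative correction and 1.49 with local coverage, and the ratio within the right flank was 0.17 with coverage. The cause of these shifts was not tested. Leaving out bins that overlap a gene outside the family gave no value, because the read-through genes cover nearly every member bin, and keeping those bins, chosen after seeing the data, gave 0.05 over 7 bins. No paired analysis was possible because each group held 1 library. Depth limits single pairs most: a pair 250 kb apart is expected to have 7.11 contacts in the GW4064 library and 4.87 in the vehicle library.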
